A study of Mus musculus with 24 samples.

Results

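Collagen genes are the 43 genes of the deposited annotation whose symbol is Col, a number, the letter a and a second number, out of 20961 genes listed in mouse heart. Membership rested on the symbol alone, but the group was chosen with earlier results of these data known. RNA of whole hearts was sequenced in 24 libraries of polyadenylated RNA, 8 from each of NZO/HlLtJ, CAST/EiJ and C57BL/6J, all labelled wild type. Within each strain, 4 libraries came from mice on a diet of 44% fat with fiber, which the protocol calls high in fat and sugar, and 4 from mice on the control diet of 10% fat with fiber. Each group of 4 held 2 female and 2 male libraries. Mice entered the diets at week 6 and hearts were taken at week 15. NZO/HlLtJ mice become obese and prone to diabetes from variants in many genes, CAST/EiJ descends from wild Mus musculus castaneus, and C57BL/6J is the standard inbred strain behind the reference genome. No label states that both libraries of 1 strain, diet and sex are different animals, so p-values measure the spread between these libraries, part of which may be technical.

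Collagens are secreted proteins whose chains wind into a triple helix in the endoplasmic reticulum before they leave the cell. In the heart, fibroblasts make most of the fibrillar collagens that bundle and tether the muscle, while endothelial and mural cells contribute much of the basement membrane collagen IV around vessels and muscle cells. The genes are commonly sorted by the structures that their proteins build, which are fibrils, coats on those fibrils, beaded filaments, sheet-like networks and membrane-bound forms.

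Libraries held 30205073 to 52254058 counts. Of the 43 collagen genes, 40 passed a filter on low counts and were tested among 17203 genes. Col10a1, Col19a1 and Col24a1 did not pass, with 74, 56 and 66 counts over all libraries together. Mitochondrially encoded genes took 20.9% to 23.9% of counts in NZO/HlLtJ, 20.2% to 23.4% in CAST/EiJ and 25.8% to 28.8% in C57BL/6J. The cardiomyocyte markers summed to between 63328 and 78372 CPM (counts per 1e+06 counts of the library) in every library, so that heart muscle RNA was present throughout. The library CAST/EiJ 44% fat female 1 stood apart within its strain, with the highest sum of collagen genes of all libraries (3632 CPM), the highest sum of endothelial markers (1510 CPM) and the lowest sum of cardiomyocyte markers (63328 CPM).

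The basement membrane chains were the most abundant collagen transcripts of the heart. Levels between genes were compared as CPM per kilobase of exon, averaged over the 24 libraries. Exon length counts every base in an exon of any annotated transcript. It was 6563 bases for Col1a1 and 12426 for Col1a2, whose mean levels were 176.8 and 182.2 CPM, so their order below comes from the length. Col4a1 stood at 87.7 and Col4a2 at 71.6 CPM per kilobase, and these chains form the network collagen IV that is common to nearly all basement membranes. Col3a1, which makes the thinner fibrils of type III, followed at 38.1, Col1a1 at 26.9 and Col1a2 at 14.7 CPM per kilobase, the last 2 being the chains of type I, the main stiff fibril. Col6a1 (24.3), Col15a1 (22.2) and Col6a2 (14.2 CPM per kilobase) completed the 8 highest. In CPM, without the correction for length, the sum over all 43 genes was shared very unevenly. Col4a1 and Col4a2 made up 41.4% of it and the 10 highest genes 87.6%, while 14 of the 43 genes averaged under 1 CPM.

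**Figure D1:**
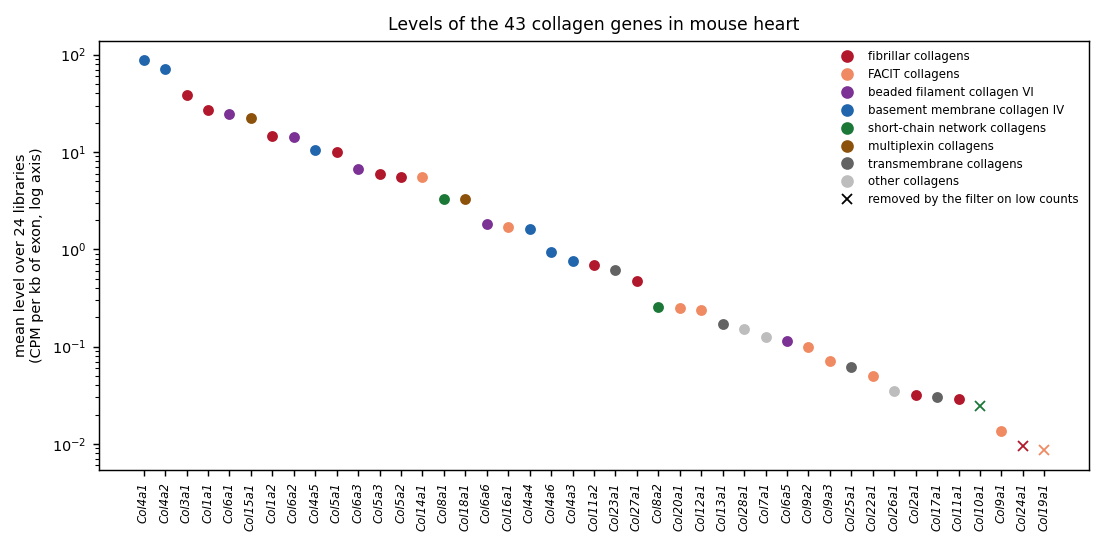
Mean level over 24 libraries of each of the 43 collagen genes (CPM per kilobase of exon, logarithmic axis), ordered from high to low and coloured by the structure the protein builds. Col4a1 (87.7) and Col4a2 (71.6) lead, and the 3 genes removed by the filter on low counts, marked with crosses, lie near the bottom.

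The genes lay on 15 chromosomes, and several neighbours are pairs of one collagen type (GRCm38, positions from GENCODE M21). Col4a1 (chromosome 8, 11198423 to 11312826, minus strand) and Col4a2 (chromosome 8, 11312805 to 11449287, plus strand) point away from each other, with RefSeq start sites 21 bases apart. Col4a6 (X chromosome, 141165403 to 141474076, minus strand) and Col4a5 (X chromosome, 141475385 to 141689234, plus strand) are arranged in the same way, as are Col4a4 and Col4a3 on chromosome 1. Col6a6 (chromosome 9, 105687809 to 105828160) and Col6a5 (chromosome 9, 105856078 to 105960643) follow each other on the minus strand, and Col6a2 and Col6a1 do so on chromosome 10. Col3a1 and Col5a2 face each other on chromosome 1.

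The 250 bases before the start site are shown for Col3a1, Col8a1 and Col6a5, which were higher in NZO/HlLtJ than in both other strains, and for Col4a6, which was higher in CAST/EiJ. They are RefSeq sequences of GRCm38.p6, the build C57BL/6J represents, so they hold no variant of NZO/HlLtJ or CAST/EiJ. Each is read toward its gene, and the windows are chr1:45311288-45311537 on the plus strand, chr16:57754738-57754987, chr9:105960644-105960893 and chrX:141474077-141474326 on the minus strand. Capitals mark 3 short motifs on either strand, which do not overlap one another here. They are the CCAAT box, the TATA box, searched as TATAAA, and the GC box, searched as GGGCGG. A GC box on the other strand appears as its reverse complement.
Col3a1: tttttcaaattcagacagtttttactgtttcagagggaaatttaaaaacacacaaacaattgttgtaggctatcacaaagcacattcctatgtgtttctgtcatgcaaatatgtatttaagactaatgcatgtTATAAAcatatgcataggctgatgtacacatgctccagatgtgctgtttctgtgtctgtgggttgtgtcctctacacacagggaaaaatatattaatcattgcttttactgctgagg
Col8a1: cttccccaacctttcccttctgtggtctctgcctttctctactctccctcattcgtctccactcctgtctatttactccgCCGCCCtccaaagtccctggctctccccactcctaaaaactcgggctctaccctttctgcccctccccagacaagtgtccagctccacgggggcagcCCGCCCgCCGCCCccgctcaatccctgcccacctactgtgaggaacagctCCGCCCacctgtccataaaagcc
Col6a5: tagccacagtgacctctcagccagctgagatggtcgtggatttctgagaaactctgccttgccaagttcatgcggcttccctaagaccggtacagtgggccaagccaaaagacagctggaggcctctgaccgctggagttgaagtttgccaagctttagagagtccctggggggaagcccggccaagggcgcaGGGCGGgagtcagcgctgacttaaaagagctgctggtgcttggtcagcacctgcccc
Col4a6: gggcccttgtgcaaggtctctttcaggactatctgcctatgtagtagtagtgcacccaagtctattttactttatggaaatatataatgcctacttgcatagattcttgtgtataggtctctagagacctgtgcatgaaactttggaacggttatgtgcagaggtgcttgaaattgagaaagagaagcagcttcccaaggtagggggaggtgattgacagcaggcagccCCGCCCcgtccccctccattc
TATAAA was found in the Col3a1 window, with its first base 117 bases before the start. GGGCGG or its reverse complement was found 4 times before Col8a1, in 1 place before Col6a5 and in 1 place before Col4a6. Of the 43 genes, 34 had an entry, with 37 windows among them. GGGCGG occurred in 56.8% of the 37 collagen windows, against 32.7% of all 32851 windows of the same length. CCAAT occurred in 32.4% of the collagen windows, against 33.9% of all, and TATAAA in 13.5%, against 12.4% of all. These are matches of letters and say nothing about a factor.

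Most collagen genes that passed a test did so between strains. Between NZO/HlLtJ and C57BL/6J hearts, 24 of the 40 tested collagen genes were higher in NZO/HlLtJ and 0 lower at an adjusted p under 0.05 (edgeR, Benjamini-Hochberg over all 17203 genes), where 17.9% of all genes were called higher and 17.6% lower. The median log2 fold change of the 40 was 0.51, against 0.00 over all genes. Against CAST/EiJ, NZO/HlLtJ was higher in 26 of 40 and lower in 5, with 30.5% of all genes higher and 29.8% lower, and the median of the 40 was 0.59. Between CAST/EiJ and C57BL/6J, 9 were higher in CAST/EiJ and 14 lower, with 29.1% of all genes higher and 29.7% lower, and the median of the 40 was -0.10. The last count is close to the background. The genome to which NZO/HlLtJ and CAST/EiJ reads were aligned was not given. The part of read alignment in this and all other strain differences was not tested.

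In all, 20 collagen genes were called higher in NZO/HlLtJ than in both other strains, and 0 were called lower than in both, where 9.99% of all genes met the first criterion and 9.06% the second. Col17a1, counted among these and in the counts of NZO/HlLtJ above, passed the filter on low counts through NZO/HlLtJ libraries alone. CAST/EiJ was called higher than both others for 5 genes and lower than both for 14, against 21.2% and 21.9% of all genes. The 3 comparisons share libraries, so these counts are not independent of each other. Only Col25a1, Col4a4, Col5a3, Col6a3 and Col9a1 were called in none of the 3 comparisons. The labels carry library identifiers that fall into 3 ranges of 8, of which the first holds no NZO/HlLtJ library. Within the first range, 14 collagen genes were called between CAST/EiJ and C57BL/6J, 7 in each direction, where 21.5% of all genes were higher and 21.3% lower. NZO/HlLtJ against C57BL/6J gave 8 genes within the second range, where 1.61% of all genes were higher and 1.48% lower, and 15 within the third, where 4.82% were higher and 4.56% lower. All of these collagen genes were higher. NZO/HlLtJ against CAST/EiJ gave 14 within the second (12 higher and 2 lower, with 8.17% of all genes higher and 6.65% lower) and 23 within the third (19 higher and 4 lower, with 15% higher and 14.7% lower). These fits hold fewer libraries than the one over all 24. In each NZO/HlLtJ fit within a range, the strain difference rests on 2 NZO/HlLtJ libraries against 1 of the other strain. The remaining libraries only set the terms for sex and diet. Against C57BL/6J the difference rests on males on 44% fat in the second range and females on 44% fat in the third. Against CAST/EiJ it rests on females, on 10% fat in the second range and 44% fat in the third. These counts thus do not cover both sexes and diets.

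**Figure D2:**
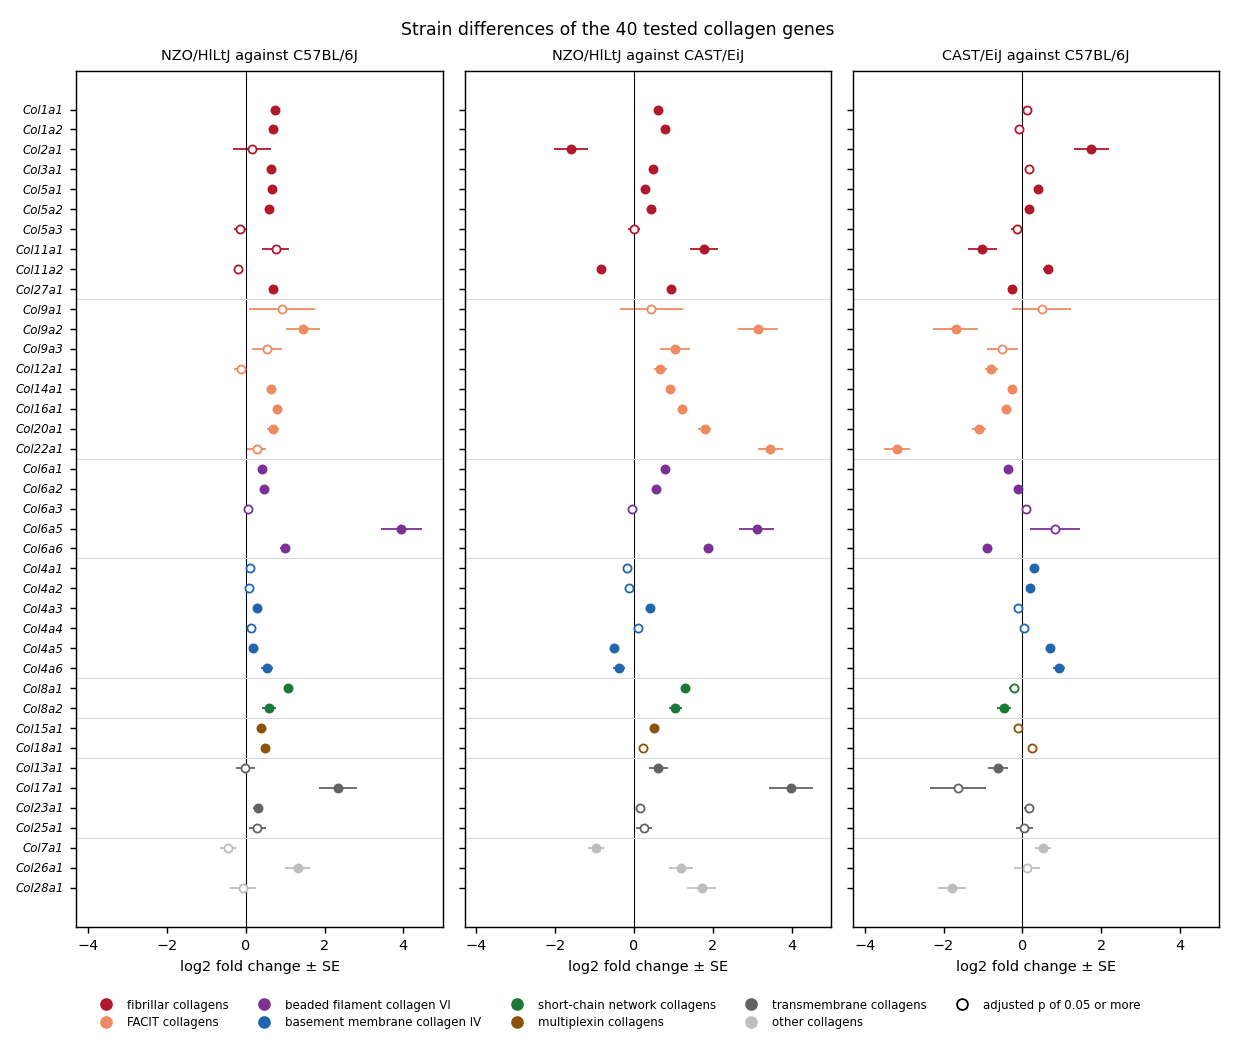
Log2 fold change with its standard error (horizontal axis) of the 40 tested collagen genes (rows, grouped by structure) in NZO/HlLtJ against C57BL/6J, NZO/HlLtJ against CAST/EiJ and CAST/EiJ against C57BL/6J. Filled points have an adjusted p under 0.05. In the left panel all 24 filled points lie right of 0, and the beaded filament gene Col6a5 lies farthest out at 3.94.

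The fibrillar collagens of heart muscle were higher in NZO/HlLtJ. Of 10 tested fibrillar genes, 6 rose against C57BL/6J with 0 lower (median log2 fold change 0.66), and 7 rose against CAST/EiJ with 2 lower (median 0.45). Beside these counts by structure, here and below, stand the shares of all genes called. In NZO/HlLtJ against C57BL/6J 17.9% were higher and 17.6% lower. The shares were 30.5% and 29.8% in NZO/HlLtJ against CAST/EiJ, and 29.1% and 29.7% in CAST/EiJ against C57BL/6J. Col1a1 lay between 208 and 277 CPM in the 8 NZO/HlLtJ libraries (median 233), between 126 and 206 CPM in CAST/EiJ (median 150) and between 123 and 150 CPM in C57BL/6J (median 143). The NZO/HlLtJ libraries did not overlap with either other strain. The log2 fold change of Col1a1 was 0.74 against C57BL/6J (SE 0.06, adjusted p = 1.7e-08, edgeR) and 0.61 against CAST/EiJ (SE 0.06, adjusted p = 6.5e-08).

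Col1a2, which pairs with Col1a1 in type I collagen, lay between 222 and 299.7 CPM in NZO/HlLtJ (median 242), 120 and 168 CPM in CAST/EiJ (median 145) and 147 and 160 CPM in C57BL/6J (median 154). Its log2 fold change in NZO/HlLtJ was 0.68 against C57BL/6J (SE 0.04, adjusted p = 3.9e-10, edgeR) and 0.78 against CAST/EiJ (SE 0.04, adjusted p = 1.6e-11). The NZO/HlLtJ libraries lay above all others for this chain as well. Col3a1 lay between 431 and 553 CPM in NZO/HlLtJ (median 465), 271 and 473 CPM in CAST/EiJ (median 336) and 252 and 348 CPM in C57BL/6J (median 304). For Col3a1 the NZO/HlLtJ and C57BL/6J libraries were separate, while the library CAST/EiJ 44% fat female 1, at 473 CPM, reached into the NZO/HlLtJ range. The log2 fold change of Col3a1 was 0.65 against C57BL/6J (SE 0.08, adjusted p = 5.3e-06) and 0.48 against CAST/EiJ (SE 0.08, adjusted p = 5.0e-05).

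Type V collagen is built into the core of type I fibrils and limits their diameter. Col5a1 and Col5a2 followed the order NZO/HlLtJ, CAST/EiJ, C57BL/6J from high to low, and all 3 differences were called for both genes. Col5a1 averaged 103 ± 5.88 CPM in NZO/HlLtJ, 85.1 ± 11.2 CPM in CAST/EiJ and 64.6 ± 2.55 CPM in C57BL/6J (SD, n = 8 each). Its log2 fold change was 0.67 in NZO/HlLtJ against C57BL/6J (adjusted p = 7.6e-11, edgeR), the smallest adjusted p of the collagen genes in that comparison. Col5a2 averaged 65.8 ± 6.85 CPM in NZO/HlLtJ, 48.9 ± 6.61 CPM in CAST/EiJ and 43.2 ± 3.44 CPM in C57BL/6J. The third chain, Col5a3, averaged 39.1 ± 5.89 CPM in NZO/HlLtJ, 39.4 ± 10.7 CPM in CAST/EiJ and 43.2 ± 6.46 CPM in C57BL/6J and was called in no comparison.

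Col27a1, a fibrillar collagen best known from cartilage, was higher in NZO/HlLtJ than in C57BL/6J (log2 fold change 0.68, adjusted p = 3.4e-05, edgeR) and CAST/EiJ (0.95, adjusted p = 2.3e-07). The fibrillar chain Col11a2 went the other way. It averaged 3.61 ± 0.67 CPM in NZO/HlLtJ, 6.38 ± 1.11 CPM in CAST/EiJ and 4.08 ± 0.75 CPM in C57BL/6J, and it was higher in CAST/EiJ than in C57BL/6J (0.64, SE 0.11, adjusted p = 6.6e-05). Col2a1, the main fibril of cartilage and named after its values were seen, was also higher in CAST/EiJ (1.75 against C57BL/6J, SE 0.44, adjusted p = 0.0021), at no more than 1.01 CPM in any library.

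The fibril-associated collagens, which coat fibrils and carry interrupted helices, had the lowest median of the structural groups in CAST/EiJ against C57BL/6J. Of 8 tested, 4 rose in NZO/HlLtJ against C57BL/6J with 0 lower (median 0.67), where 17.9% of all genes were higher. Against CAST/EiJ 7 rose in NZO/HlLtJ with 0 lower (median 1.14), where 30.5% of all genes were higher. In CAST/EiJ against C57BL/6J 6 fell with 0 higher (median -0.65), where 29.7% of all genes were lower. Col16a1, which links fibrils to other matrix, lay between 14.8 and 23.0 CPM in NZO/HlLtJ (median 16.2), 6.88 and 8.13 CPM in CAST/EiJ (median 7.22) and 9.22 and 10.9 CPM in C57BL/6J (median 9.75). None of the 3 ranges overlapped. Its log2 fold change was 1.23 in NZO/HlLtJ against CAST/EiJ (SE 0.06, adjusted p = 7.4e-13, edgeR), 0.80 in NZO/HlLtJ against C57BL/6J (adjusted p = 1.1e-09) and -0.43 in CAST/EiJ against C57BL/6J (adjusted p = 2.6e-06).

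Col20a1, a low-abundance member of the same group, averaged 2.02 ± 0.27 CPM in NZO/HlLtJ, 0.59 ± 0.16 CPM in CAST/EiJ and 1.24 ± 0.26 CPM in C57BL/6J. Col12a1, which coats fibrils in tendon and other loaded tissue, was lower in CAST/EiJ (2.46 ± 0.44 CPM) than in C57BL/6J (4.31 ± 1.08 CPM; log2 fold change -0.79, SE 0.16, adjusted p = 4.2e-04, edgeR) and averaged 4.03 ± 1.54 CPM in NZO/HlLtJ. Col22a1, known from junctions of muscle and tendon, and Col9a2, a chain of cartilage collagen IX, average under 1 CPM. Col22a1 is named after its values were seen. Col22a1 had between 0 and 0.146 CPM in CAST/EiJ and between 0.38 and 0.688 CPM in C57BL/6J (log2 fold change -3.18, SE 0.32, adjusted p = 7.8e-08), and the libraries of these strains did not overlap. Col9a2 was higher in NZO/HlLtJ than in CAST/EiJ by 3.15 on the log2 scale (SE 0.52, adjusted p = 3.3e-05), with a median of 0.499 CPM in NZO/HlLtJ and 0.0464 CPM in CAST/EiJ.

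Collagen VI forms beaded filaments around cells, from chains that assemble with one another inside the cell. In NZO/HlLtJ 4 of 5 genes rose against each other strain with 0 lower, where 17.9% of all genes rose against C57BL/6J and 30.5% against CAST/EiJ. In CAST/EiJ 3 of 5 fell against C57BL/6J with 0 higher, where 29.7% of all genes fell. Col6a1 lay between 123 and 145 CPM in NZO/HlLtJ (median 137), 71.0 and 105 CPM in CAST/EiJ (median 75.4) and 93.4 and 119 CPM in C57BL/6J (median 103). NZO/HlLtJ lay above both other strains without overlap, by 0.40 on the log2 scale against C57BL/6J (SE 0.05, adjusted p = 3.0e-06, edgeR) and 0.78 against CAST/EiJ (SE 0.05, adjusted p = 1.2e-10). Col6a2 was higher in NZO/HlLtJ by 0.45 against C57BL/6J (adjusted p = 5.7e-08) and 0.57 against CAST/EiJ (adjusted p = 8.0e-10). Col6a3, the third chain of the usual assembly, lay between 63.1 and 92.7 CPM in NZO/HlLtJ (median 81.7), 71.8 and 104 CPM in CAST/EiJ (median 77.0) and 63.1 and 91.4 CPM in C57BL/6J (median 75.4). All 3 ranges of Col6a3 overlapped in part, with log2 fold changes of 0.05 (SE 0.05) in NZO/HlLtJ against C57BL/6J, -0.04 (SE 0.05) against CAST/EiJ and 0.09 (SE 0.05) in CAST/EiJ against C57BL/6J.

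Col6a5 and Col6a6 encode chains related to that of Col6a3 that can take its place, and they showed the widest strain differences of collagen VI. Their deposited counts held fractions that complement each other. In C57BL/6J 10% fat male 1, for example, they were 39.04 for Col6a5 and 838.96 for Col6a6. Reads may thus have been divided between these genes, and the part of this in the values was not tested. Col6a6 lay between 21.4 and 37.4 CPM in NZO/HlLtJ (median 26.4), 5.23 and 8.94 CPM in CAST/EiJ (median 8.09) and 11.2 and 19.8 CPM in C57BL/6J (median 12.9), again with no overlap between any of the 3 strains. Its log2 fold change was 1.87 in NZO/HlLtJ against CAST/EiJ (SE 0.11, adjusted p = 2.7e-10, edgeR), 0.99 in NZO/HlLtJ against C57BL/6J (adjusted p = 1.6e-06) and -0.89 in CAST/EiJ against C57BL/6J (adjusted p = 3.1e-06). Col6a5 lay between 0.975 and 4.72 CPM in NZO/HlLtJ (median 2.48), 0.176 and 0.53 CPM in CAST/EiJ (median 0.243) and 0.0287 and 0.922 CPM in C57BL/6J (median 0.122). Every NZO/HlLtJ library was above every other library, by 3.94 on the log2 scale against C57BL/6J (SE 0.52, adjusted p = 2.0e-05) and 3.11 against CAST/EiJ (SE 0.45, adjusted p = 2.1e-05). Within the middle identifier range alone the value of Col6a5 against C57BL/6J was 4.04, from 2 NZO/HlLtJ libraries against 1 C57BL/6J library.

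**Figure D3:**
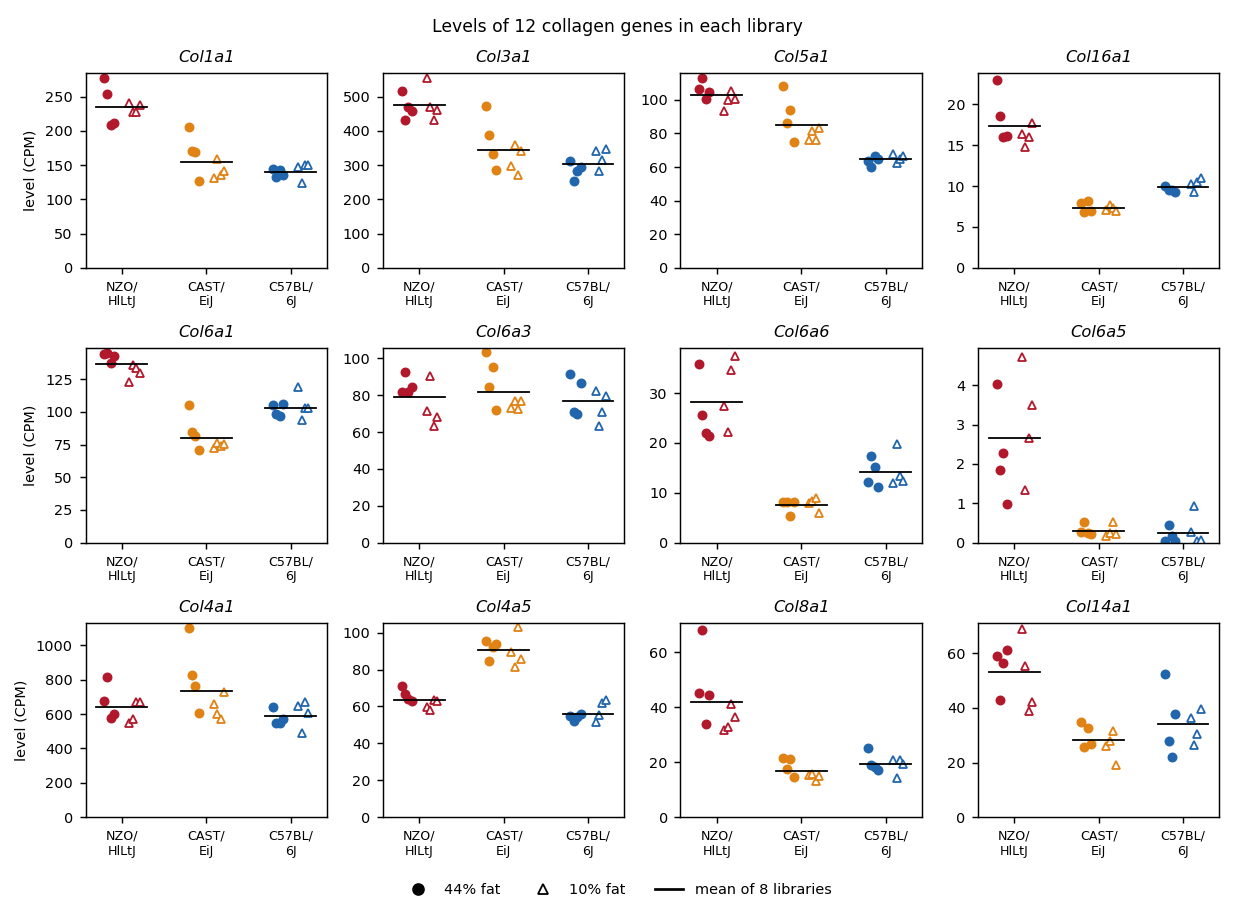
Level in CPM (vertical axes, starting at 0) of 12 collagen genes in each of the 24 libraries, by strain, with filled circles for 44% fat, open triangles for 10% fat and a line at the mean of 8 libraries. Col16a1 and Col6a6 separate all 3 strains, Col6a5 and Col8a1 are high in NZO/HlLtJ alone, Col4a5 is highest in CAST/EiJ, and Col6a3 overlaps throughout.

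The abundant basement membrane chains Col4a1 and Col4a2 were not called between NZO/HlLtJ and either other strain. Of 6 collagen IV genes, 3 rose in NZO/HlLtJ against C57BL/6J with 0 lower and a median of 0.16, where 17.9% of all genes were higher. In NZO/HlLtJ against CAST/EiJ 1 rose and 2 fell, with a median of -0.15, where 30.5% of all genes were higher and 29.8% lower. In CAST/EiJ 4 of 6 rose against C57BL/6J with 0 lower and a median of 0.25, where 29.1% of all genes were higher. Col4a1 lay between 550 and 817 CPM in NZO/HlLtJ (median 635), 574 and 1101 CPM in CAST/EiJ (median 695) and 492 and 669.6 CPM in C57BL/6J (median 588). All 3 ranges overlapped. The log2 fold change of Col4a1 was 0.11 in NZO/HlLtJ against C57BL/6J (SE 0.09, adjusted p = 0.36, edgeR), -0.18 in NZO/HlLtJ against CAST/EiJ (SE 0.09, adjusted p = 0.095) and 0.30 in CAST/EiJ against C57BL/6J (SE 0.09, adjusted p = 0.011). The library CAST/EiJ 44% fat female 1 held the highest value of Col4a1, and without it the last value was 0.22 (adjusted p = 0.028).

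Col4a2 averaged 469 ± 61.0 CPM in NZO/HlLtJ, 511 ± 96.6 CPM in CAST/EiJ and 443 ± 31.7 CPM in C57BL/6J (SD, n = 8 each). It was called in CAST/EiJ against C57BL/6J (log2 fold change 0.20, SE 0.08, adjusted p = 0.042, edgeR), and without the library CAST/EiJ 44% fat female 1 that call was lost (0.14, adjusted p = 0.12). The X-linked pair showed a wider difference. Col4a5, a chain of basement membranes of kidney and smooth muscle among other tissues, lay between 58.2 and 71.0 CPM in NZO/HlLtJ (median 63.1), 81.5 and 103 CPM in CAST/EiJ (median 90.9) and 51.5 and 63.4 CPM in C57BL/6J (median 54.9). CAST/EiJ lay above both other strains without overlap, by 0.69 on the log2 scale against C57BL/6J (SE 0.04, adjusted p = 1.1e-10), and NZO/HlLtJ was 0.51 below CAST/EiJ (log2 fold change -0.51, SE 0.04, adjusted p = 7.2e-09). Col4a6, its neighbour on the X chromosome, averaged 7.43 ± 1.83 CPM in NZO/HlLtJ, 9.74 ± 1.62 CPM in CAST/EiJ and 5.28 ± 1.40 CPM in C57BL/6J, and was called in the same directions as Col4a5 in all 3 comparisons. With identifier range as a covariate, its call in NZO/HlLtJ against CAST/EiJ was lost (-0.40, adjusted p = 0.063, edgeR).

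Both tested short-chain network collagens were higher in NZO/HlLtJ than in either other strain. Col8a1, which vessel walls make, lay between 31.6 and 67.9 CPM in NZO/HlLtJ (median 38.7), 13.1 and 21.5 CPM in CAST/EiJ (median 15.6) and 14.2 and 25.2 CPM in C57BL/6J (median 19.2). NZO/HlLtJ did not overlap with the others, and the log2 fold change was 1.08 against C57BL/6J (SE 0.11, adjusted p = 8.2e-07, edgeR) and 1.30 against CAST/EiJ (SE 0.11, adjusted p = 3.3e-08). Col8a2, its partner chain, averaged 1.58 ± 0.38 CPM in NZO/HlLtJ, 0.78 ± 0.34 CPM in CAST/EiJ and 1.06 ± 0.29 CPM in C57BL/6J, with overlap.

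The multiplexins lie at the border of basement membranes, and Col18a1 is the source of endostatin. Col15a1 averaged 171 ± 21.1 CPM in NZO/HlLtJ, 121 ± 18.1 CPM in CAST/EiJ and 130 ± 16.2 CPM in C57BL/6J, a log2 fold change of 0.40 in NZO/HlLtJ against C57BL/6J (SE 0.06, adjusted p = 7.7e-05, edgeR) and 0.50 against CAST/EiJ (SE 0.06, adjusted p = 2.1e-06). Col18a1 averaged 27.0 ± 6.11 CPM in NZO/HlLtJ, 22.8 ± 2.55 CPM in CAST/EiJ and 19.3 ± 2.87 CPM in C57BL/6J and was called against C57BL/6J alone (0.48, SE 0.10, adjusted p = 0.0015). Its value against CAST/EiJ was 0.24 (adjusted p = 0.053), and the ranges of Col15a1 and Col18a1 overlapped between all strains. Among 4 transmembrane genes, 2 rose in NZO/HlLtJ against C57BL/6J. One of them, Col17a1 of epidermal hemidesmosomes, is named after its values were seen and reached at most 0.719 CPM in NZO/HlLtJ. It had 6 to 40 counts in NZO/HlLtJ libraries, 0 to 3 in CAST/EiJ and 0 to 11 in C57BL/6J. Col17a1 thus passed the filter on low counts through NZO/HlLtJ alone, and a call in NZO/HlLtJ could hardly be other than higher.

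Col7a1, of the anchoring fibrils of skin, had a lower level in NZO/HlLtJ (0.88 ± 0.25 CPM) than in CAST/EiJ (1.75 ± 0.36 CPM; log2 fold change -0.97, SE 0.20, adjusted p = 4.5e-04, edgeR), and averaged 1.21 ± 0.38 CPM in C57BL/6J. It rose in CAST/EiJ against C57BL/6J by 0.52 (SE 0.20, adjusted p = 0.032), and its ranges overlapped between all strains.

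The proportion between chains was also set within each library as a log2 ratio of CPM per kilobase, which removes library size. These ratios were chosen after the levels were seen and are given without a test. The ratio of Col4a1 to Col1a1 lay between 1.01 and 1.5 in NZO/HlLtJ (median 1.30), 1.73 and 2.23 in CAST/EiJ (median 2.09) and 1.77 and 1.98 in C57BL/6J (median 1.87), so that NZO/HlLtJ libraries lay below all others. The ratio of Col6a3 to Col6a1 lay between -2.54 and -2.03 in NZO/HlLtJ (median -2.22), -1.48 and -1.23 in CAST/EiJ (median -1.43) and -2.02 and -1.66 in C57BL/6J (median -1.92). The 3 strains did not overlap in that ratio. Within type I collagen, the ratio of Col1a1 to Col1a2 had medians of 0.83 in NZO/HlLtJ, 1.01 in CAST/EiJ and 0.81 in C57BL/6J. The size of such a ratio depends on the exon lengths used, while its differences between strains do not. The ratio of Col4a1 to Col4a2 stayed between 0.15 and 0.46 in all 24 libraries, with overlap between strains.

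**Figure D4:**
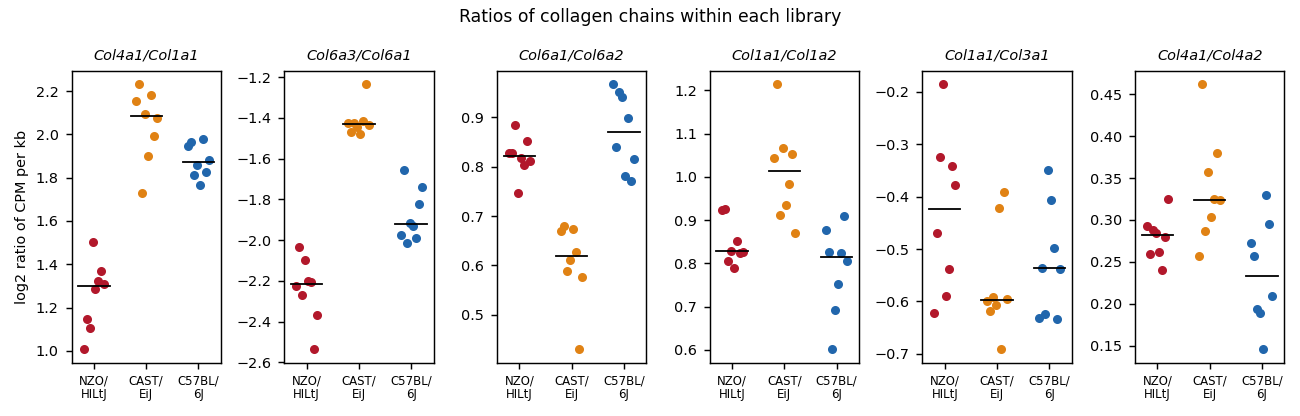
Log2 ratio of CPM per kilobase between pairs of collagen chains (vertical axes, each with its own range) in each library, by strain, with a line at the median of 8 libraries. The Col4a1 to Col1a1 ratio is lowest in NZO/HlLtJ (1.01 to 1.5), and the Col6a3 to Col6a1 ratio separates all 3 strains.

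Marker genes of several cell types were also called between strains, and their part in the collagen differences was not tested. Of all genes, 17.9% were called higher and 17.6% lower in NZO/HlLtJ against C57BL/6J. These shares were 30.5% and 29.8% in NZO/HlLtJ against CAST/EiJ, and 29.1% and 29.7% in CAST/EiJ against C57BL/6J. The endothelial counts below, and those of smooth muscle and pericyte markers in CAST/EiJ against C57BL/6J, lie near the shares. Of 10 fibroblast markers, 9 rose in NZO/HlLtJ against C57BL/6J with 0 lower (median log2 fold change 0.37), and 8 rose against CAST/EiJ with 0 lower (median 0.68). In CAST/EiJ against C57BL/6J 2 rose and 5 fell (median -0.23). Their sum lay between 2255 and 2906 CPM in NZO/HlLtJ, 1441 and 1752 CPM in CAST/EiJ and 1781 and 2045 CPM in C57BL/6J, with no overlap between strains. In bulk RNA, more cells of a type and more RNA per cell cannot be told apart. Of 7 tested valve and cartilage markers, 4 rose and 1 fell in NZO/HlLtJ against C57BL/6J, and their sum lay between 38.3 and 62.7 CPM in NZO/HlLtJ, 15.7 and 25.7 CPM in CAST/EiJ and 21.8 and 40.3 CPM in C57BL/6J. Of 10 endothelial markers, 2 rose and 2 fell in NZO/HlLtJ against C57BL/6J, with sums of 1095 to 1203 CPM in NZO/HlLtJ, 1127 to 1510 CPM in CAST/EiJ and 1159 to 1286 CPM in C57BL/6J. Of 6 Schwann cell markers, 4 rose in NZO/HlLtJ against C57BL/6J with 0 lower (median 0.50), 3 rose and 1 fell against CAST/EiJ, and 1 rose and 3 fell in CAST/EiJ against C57BL/6J. Their sum lay between 16.3 and 20.7 CPM in NZO/HlLtJ, 10.3 and 17.2 CPM in CAST/EiJ and 11.0 and 17.5 CPM in C57BL/6J, with overlap. Of 10 smooth muscle and pericyte markers, 1 rose and 3 fell in NZO/HlLtJ against each other strain, and 4 rose and 3 fell in CAST/EiJ against C57BL/6J. Their sum lay between 1090 and 1238 CPM in NZO/HlLtJ, 1210 and 1400 CPM in CAST/EiJ and 1356 and 1571 CPM in C57BL/6J, so that NZO/HlLtJ lay below C57BL/6J without overlap. Of 6 atrial markers, 1 rose in NZO/HlLtJ against C57BL/6J and 2 against CAST/EiJ, with 0 lower, near the shares of higher genes. Their sum varied widely, from 1269 to 3277 CPM in NZO/HlLtJ, 802 to 2188 CPM in CAST/EiJ and 784 to 2735 CPM in C57BL/6J. Of 6 macrophage markers, 3 fell in NZO/HlLtJ against C57BL/6J with 0 higher, and their sums overlapped between strains. Without the mitochondrially encoded genes, 23 collagen genes were higher in NZO/HlLtJ than in C57BL/6J with 0 lower.

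Counts for genes that modify, secrete, bind and break down collagen, or inhibit its breakdown, stand beside the same shares of all genes called. These were 17.9% higher and 17.6% lower in NZO/HlLtJ against C57BL/6J. They were 30.5% and 29.8% in NZO/HlLtJ against CAST/EiJ, and 29.1% and 29.7% in CAST/EiJ against C57BL/6J. Of 17 tested genes of secretion, trimming and cross-linking, 11 rose in NZO/HlLtJ against C57BL/6J with 0 lower (median 0.39), 9 rose and 3 fell against CAST/EiJ, and 7 rose and 6 fell in CAST/EiJ against C57BL/6J. Pcolce2, which speeds the trimming of procollagen, averaged 43.9 ± 3.74 CPM in NZO/HlLtJ, 42.6 ± 2.39 CPM in CAST/EiJ and 15.7 ± 1.72 CPM in C57BL/6J, a log2 fold change of 1.49 in NZO/HlLtJ against C57BL/6J (SE 0.05, adjusted p = 1.5e-14, edgeR). Its value in CAST/EiJ against C57BL/6J was 1.45 (adjusted p = 5.9e-15). Adamts2, which removes the amino-terminal propeptide of fibrillar procollagens, was 0.52 higher in NZO/HlLtJ than in C57BL/6J (adjusted p = 1.5e-08), and its relative Adamts14 was 1.05 higher (adjusted p = 3.4e-05).

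Of 18 tested genes of collagen modification and folding, 8 rose and 4 fell in NZO/HlLtJ against C57BL/6J, 7 rose and 7 fell against CAST/EiJ, and 8 rose and 5 fell in CAST/EiJ against C57BL/6J. Fkbp10, a prolyl isomerase of the endoplasmic reticulum that acts on procollagen, averaged 13.9 ± 1.84 CPM in NZO/HlLtJ, 5.48 ± 0.63 CPM in CAST/EiJ and 20.8 ± 3.0 CPM in C57BL/6J, and fell by 1.92 on the log2 scale in CAST/EiJ against C57BL/6J (adjusted p = 2.5e-14, edgeR). P3h4, part of the complex for lysyl hydroxylation, fell by 1.70 in the same comparison (adjusted p = 7.6e-14). Against C57BL/6J both were also lower in NZO/HlLtJ, with log2 fold changes of -0.44 for P3h4 and -0.59 for Fkbp10, the direction opposite to that of type I collagen. Against CAST/EiJ both were higher in NZO/HlLtJ, P3h4 by 1.27 and Fkbp10 by 1.33, the same direction as type I collagen. P3h1, a prolyl 3-hydroxylase, was 0.41 higher in NZO/HlLtJ than in C57BL/6J (adjusted p = 3.4e-06).

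Of 10 receptors and uptake genes, 4 rose and 2 fell in NZO/HlLtJ against C57BL/6J, 4 rose and 2 fell against CAST/EiJ, and 3 rose and 3 fell in CAST/EiJ against C57BL/6J, the last count being at the share of all genes. The collagen-binding kinase Ddr2 of fibroblasts was 0.35 higher in NZO/HlLtJ than in C57BL/6J (adjusted p = 9.0e-07, edgeR) and the integrin chain Itga11, which binds fibrillar collagen, was 1.28 higher in NZO/HlLtJ than in CAST/EiJ (adjusted p = 1.9e-08). Itga1, whose integrin binds collagen IV, was 0.61 higher in CAST/EiJ than in C57BL/6J (adjusted p = 1.1e-07). Its log2 fold change in NZO/HlLtJ against CAST/EiJ was -0.99 (adjusted p = 1.4e-10, edgeR). The receptor gene Ddr1 had the smallest p of this list against C57BL/6J. It was 0.88 higher in NZO/HlLtJ (adjusted p = 1.5e-12, edgeR) and 0.82 higher in CAST/EiJ (adjusted p = 1.2e-12). Of 9 genes of degradation and its inhibition, 3 rose in NZO/HlLtJ against C57BL/6J with 0 lower. Against CAST/EiJ 4 rose and 1 fell, and 4 rose and 3 fell in CAST/EiJ against C57BL/6J. Timp2, which encodes an inhibitor of metalloproteases, was among those that rose in NZO/HlLtJ, by 0.39 against C57BL/6J and 0.51 against CAST/EiJ. A rise in this list is thus not a rise in degrading enzymes alone. The gelatinase gene Mmp2 averaged 81.8 ± 8.38 CPM in NZO/HlLtJ, 76.1 ± 7.37 CPM in CAST/EiJ and 52.4 ± 5.49 CPM in C57BL/6J. The protease gene Ctsk was 0.74 higher in NZO/HlLtJ than in C57BL/6J (adjusted p = 5.2e-06).

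No collagen gene passed the threshold for diet in the fit of 12 group means. Over all strains 0 of 40 were called in edgeR, and 7 had an unadjusted p under 0.05, all of them higher on 44% fat, while 0.128% of all genes were called higher and 0.0291% lower. DESeq2 called 2 (0.5% of all genes higher) and limma-voom 0. With identifier range as a covariate, edgeR called 1, Col15a1 (log2 fold change 0.21, adjusted p = 0.048, against 0.16 and an adjusted p of 0.33 without the covariate), where 0.0698% of all genes were higher. The median log2 fold change of the 40 was 0.05, against 0.00 over all genes. In NZO/HlLtJ 0 of 40 were called (7 at an unadjusted p under 0.05, DESeq2 0), with 0% of all genes higher and 0% lower. In CAST/EiJ 0 were called (10 at an unadjusted p under 0.05, DESeq2 1, with 0.105% of all genes higher in DESeq2), with 0% of all genes higher and 0% lower. In C57BL/6J 0 were called (1 at an unadjusted p under 0.05, DESeq2 0), with 0.0349% of all genes higher and 0.00581% lower. The medians of the 40 were 0.10 in NZO/HlLtJ, 0.06 in CAST/EiJ and -0.02 in C57BL/6J. Limma-voom called 0 in each strain. Of all 17203 genes, 1515 had an unadjusted p under 0.05 for diet over all strains in edgeR. The same count was 1233 in NZO/HlLtJ, 1137 in CAST/EiJ and 966 in C57BL/6J.

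The smallest p over all strains belonged to collagen VI. On 44% fat, Col6a3 was at 81.5, 84.6, 81.9 and 92.7 CPM in NZO/HlLtJ, against 71.5, 90.7, 63.1 and 68.4 CPM on 10% fat. In CAST/EiJ, Col6a3 was at 104, 95.1, 84.6 and 71.8 CPM on 44% fat, against 73.3, 72.6, 77.0 and 76.9 CPM on 10% fat. In C57BL/6J, Col6a3 was at 91.4, 86.8, 71.1 and 69.6 CPM on 44% fat, against 82.5, 79.7, 63.1 and 70.7 CPM on 10% fat. The diets overlapped in all 3 strains. The log2 fold change over all strains was 0.19 (SE 0.04, adjusted p = 0.078, edgeR), and it was called at 0.05 without the library NZO/HlLtJ 10% fat female 2 or without NZO/HlLtJ 44% fat male 1. Col6a2 in CAST/EiJ was at 125, 115, 105 and 90.4 CPM on 44% fat, against 86.0, 88.4, 95.9 and 92.3 CPM on 10% fat, so that 1 library on 44% fat lay within the range of the control diet. In NZO/HlLtJ, Col6a2 was at 148, 156, 149 and 164 CPM on 44% fat, against 131, 146, 141 and 140.1 CPM on 10% fat, without overlap. In C57BL/6J, Col6a2 was at 112, 115, 97.2 and 107 CPM on 44% fat, against 116, 115, 91.8 and 105 CPM on 10% fat, with overlap. Col6a2 had a value of 0.14 over all strains (SE 0.03, adjusted p = 0.14) and of 0.26 in CAST/EiJ (SE 0.06, adjusted p = 0.23).

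Col5a2 gave the smallest p for a diet effect in NZO/HlLtJ, in C57BL/6J and for their difference. In NZO/HlLtJ it was at 66.1, 66.8, 75.6 and 76.1 CPM on 44% fat, against 62.8, 59.5, 58.9 and 60.3 CPM on 10% fat. In C57BL/6J it was at 42.8, 39.3, 39.4 and 41.9 CPM on 44% fat, against 49.4, 45.1, 41.9 and 46.0 CPM on 10% fat. The diets did not overlap in NZO/HlLtJ, where 44% fat was higher, and overlapped in C57BL/6J, where it was mostly lower. The log2 fold change of Col5a2 was 0.23 in NZO/HlLtJ (SE 0.06, adjusted p = 0.46, edgeR), 0.17 in CAST/EiJ (SE 0.06, adjusted p = 0.64) and -0.16 in C57BL/6J (SE 0.06, adjusted p = 0.81). The difference of the effect between NZO/HlLtJ and C57BL/6J was 0.39 (SE 0.09, unadjusted p = 0.00029, adjusted p = 0.76).

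In CAST/EiJ, Col5a1 was at 108, 94.2, 86.1 and 75.1 CPM on 44% fat, against 76.3, 76.1, 81.7 and 83.0 CPM on 10% fat, with overlap (log2 fold change 0.19, SE 0.05, adjusted p = 0.50, edgeR). In NZO/HlLtJ, Col8a1 was at 34.1, 44.5, 45.2 and 67.9 CPM on 44% fat, against 31.6, 32.9, 41.0 and 36.5 CPM on 10% fat, also with overlap (0.41, SE 0.15, adjusted p = 0.62). In C57BL/6J, Col4a6 was at 2.59, 4.11, 6.74 and 4.82 CPM on 44% fat, against 6.65, 5.84, 5.84 and 5.67 CPM on 10% fat (-0.44, SE 0.22, adjusted p = 0.91). Of the 4 libraries on 44% fat, 3 lay below all of those on the control diet and 1 above them.

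In the fit of 12 group means, no difference of the diet effect between strains was called for a collagen gene. For NZO/HlLtJ minus C57BL/6J 0 of 40 passed in edgeR and 3 had an unadjusted p under 0.05, with 0.00581% of all genes called lower. For CAST/EiJ minus C57BL/6J 0 passed and 7 had an unadjusted p under 0.05. For NZO/HlLtJ minus CAST/EiJ 0 passed and 0 were under 0.05 before adjustment. The same counts before adjustment over all 17203 genes were 818, 1123 and 799, in that order. With DESeq2 or limma-voom, 0 were called in each of these. With identifier range as a covariate, Col5a2 was called for CAST/EiJ minus C57BL/6J (0.45, adjusted p = 0.033, edgeR, against 0.33 and an adjusted p of 0.68 without the covariate), where 0.0174% of all genes were called higher. In CAST/EiJ several chains shared a positive value, among them Col4a1 (0.35, SE 0.13, adjusted p = 0.66) and Col1a1 (0.24, SE 0.08, adjusted p = 0.63). Without the library CAST/EiJ 44% fat female 1, these were 0.21 for Col4a1 (adjusted p = 0.99) and 0.16 for Col1a1 (adjusted p = 0.96). With identifier range as a covariate they were 0.55 for Col4a1 (adjusted p = 0.18) and 0.36 for Col1a1 (adjusted p = 0.22). In CAST/EiJ both libraries of the second range were on 10% fat and both of the third on 44% fat, so that in these libraries range and diet cannot be told apart. The genes of collagen modification, secretion, binding and breakdown held 0 called genes for any diet comparison in edgeR.

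**Figure D5:**
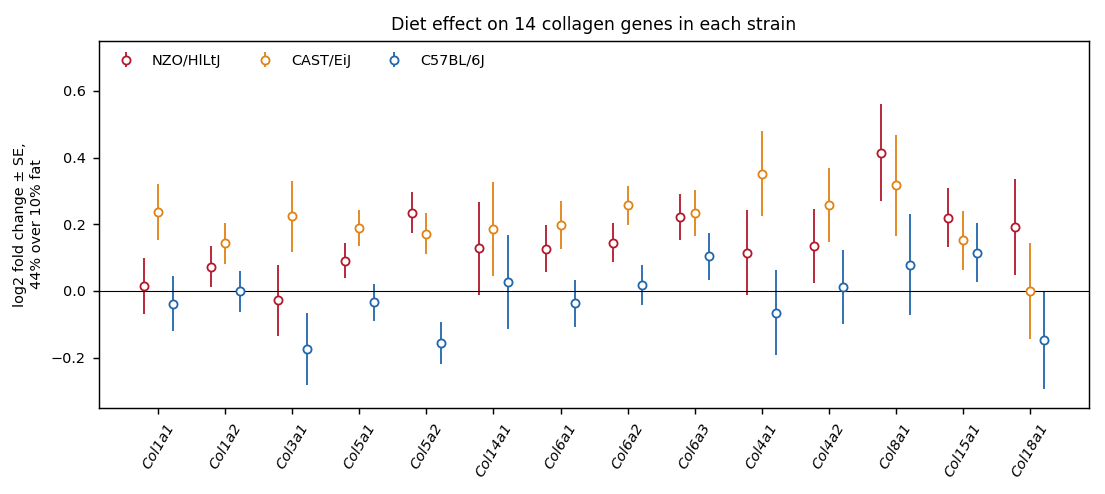
Log2 fold change of 44% over 10% fat with its standard error (vertical axis) for 14 collagen genes in NZO/HlLtJ, CAST/EiJ and C57BL/6J. None had an adjusted p under 0.05. Col5a2 lies at 0.23 in NZO/HlLtJ, 0.17 in CAST/EiJ and -0.16 in C57BL/6J.

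Between the sexes, 1 of 40 collagen genes was called higher in females and 0 lower, where 0.174% of all genes were higher and 0.198% lower. Col14a1, a fibril-associated collagen, lay between 26.0 and 68.7 CPM in the 12 female libraries (median 38.8) and between 19.2 and 58.8 CPM in the 12 male libraries (median 28.1). In NZO/HlLtJ, Col14a1 was at 56.3, 61.0, 68.7 and 55.2 CPM in females, against 58.8, 42.95, 38.8 and 42.1 CPM in males. In CAST/EiJ, Col14a1 was at 34.97, 32.5, 26.0 and 31.6 CPM in females, against 25.6, 26.8, 28.0 and 19.2 CPM in males. In C57BL/6J, Col14a1 was at 52.3, 37.8, 36.4 and 39.8 CPM in females, against 28.1, 22.1, 26.4 and 30.6 CPM in males. The sexes overlapped in NZO/HlLtJ and CAST/EiJ and were separate in C57BL/6J. Both C57BL/6J libraries of the second identifier range were male and both of the third female. In these libraries sex and range cannot be told apart. The log2 fold change of Col14a1 was 0.45 (SE 0.08, adjusted p = 0.022, edgeR), and leaving out any single one of 5 libraries ended the call (adjusted p = 0.064 without C57BL/6J 10% fat male 1, 0.056 without CAST/EiJ 44% fat female 1, 0.054 and 0.051 without CAST/EiJ 44% fat male 1 or male 2, and 0.059 without NZO/HlLtJ 44% fat female 2). Col6a3 had the next smallest p, with a log2 fold change of 0.19 (SE 0.04, adjusted p = 0.051). With identifier range as a covariate, the call of Col14a1 was lost (0.46, adjusted p = 0.063, edgeR) and Col6a3 was called instead (0.21, adjusted p = 0.033), with 0.186% of all genes higher.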

How the data were processed

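RNA was measured in 24 heart libraries in expected counts, which the authors deposited by gene and which need not be whole numbers (19.3% of values were off a whole number by over 1e-06). A second deposited table holds variance-stabilized log2 values, used as an alternative. Gene symbols came from a separate deposited table. It also holds positions, which match the GENCODE M21 positions printed here for 41 of 43 collagen genes, Col6a5 not among them. GRCm38 and DESeq2 are named, without version or role, in the submitters' processing notes. The aligner, the counting program, the use of strand and the genome to which NZO/HlLtJ and CAST/EiJ reads were aligned were not given in the sources used here. A bias of the reference genome against reads of these strains could therefore not be checked. Every listed gene was above 0 in at least 13 libraries, so the deposited table holds no gene absent from most libraries.

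After rounding, the counts entered edgeR 4.0.16 (R 4.3.3). The filter on low counts was filterByExpr (minimum count 10, minimum total 15). Library sizes were scaled by TMM factors of 0.954 to 1.06. The robust quasi-likelihood fit had 12 group means and gave 11 contrasts in which groups weigh equally, with Benjamini-Hochberg adjustment over all 17203 genes and a threshold of 0.05. The biological coefficient of variation was 0.127. CPM are counts divided by the scaled library total, times 1e+06. Exon lengths and gene positions came from GENCODE M21 and start sites and promoters from RefSeq. Where exons of genes overlap, as the first exons of Col4a1 and Col4a2 do by 22 bases, reads could be divided between them. The fit was tested on simulated counts. Alternatives used DESeq2 1.42.0 and limma 3.58.1.

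The collagen genes, the role, pathway and marker lists and the contrasts were chosen with earlier results of these data known. Values per library are given for collagen genes named by a rule: up to 5 called genes of largest change per strain contrast and direction with a mean of at least 1 CPM, the called genes or those of smallest p in each other contrast, and 14 genes of main types. Replicate numbers follow accession order and pair no libraries. Of 22 listed names of modification and folding, 18 were found and tested. The other names are older symbols of genes on the same list.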

Additional observations from a re-analysis of the deposited data

Results flagged for a closer look

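Of 216 groups of 4 or 8 libraries in which the named collagen genes were examined, 7 held a library far from the others, judged by its gap to the nearest library relative to the whole range (Dixon's test). Chance flags about 1 in 20 groups. Among NZO/HlLtJ libraries, Col15a1 reached 216 CPM in 44% fat male 2 (next 176 CPM), Col8a1 reached 67.9 CPM in the same library (next 45.2 CPM) and Col18a1 reached 41.0 CPM in 44% fat male 1 (next 29.0 CPM). Among CAST/EiJ libraries, Col6a1 reached 105 CPM in 44% fat female 1 (next 84.2 CPM), Col6a6 was lowest at 5.23 CPM in 44% fat female 2 (next 8.05 CPM) and Col12a1 was lowest at 1.88 CPM in 10% fat male 2 (next 2.57 CPM). Among C57BL/6J libraries on 10% fat, Col1a1 was lowest at 123 CPM in male 1 (next 147 CPM).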

How the results depend on the processing

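Among 177 results, no value that passed the threshold changed sign under the alternatives run. Values that did not pass changed sign 22 times under other tools, scalings and fits and 103 times when 1 library was left out, in 33 results whose size was at most 0.24 on the log2 scale. Among them, Col18a1 in NZO/HlLtJ against CAST/EiJ was -0.02 within the second identifier range, where Col6a3 was 0.16, and Col6a3 in NZO/HlLtJ against C57BL/6J was -0.06 within the last range. Counts of called collagen genes between strains stayed within 1.5 times under other tools, scalings and filters, and leaving out 1 library gave 17 to 25 for CAST/EiJ against C57BL/6J, 22 to 25 for NZO/HlLtJ against C57BL/6J and 29 to 32 for NZO/HlLtJ against CAST/EiJ. Within identifier ranges the counts were 14 for CAST/EiJ against C57BL/6J in the first, 8 and 15 for NZO/HlLtJ against C57BL/6J in the other 2, and 14 for NZO/HlLtJ against CAST/EiJ in the second, each with fewer libraries. For sex, 2 genes (Col14a1 and Col6a3) were called with DESeq2 size factors, with no filter on low counts, without mitochondrially encoded genes and on the deposited variance-stabilized values, and 3 with DESeq2, which adds Col6a6. Without 1 library the sex count was 0 to 2. It was 0 without C57BL/6J 10% fat male 1, CAST/EiJ 44% fat female 1, CAST/EiJ 44% fat male 2 or NZO/HlLtJ 44% fat female 2. For diet over all strains, DESeq2 called 2 (Col6a2 and Col6a3), identifier range as a covariate 1 (Col15a1), and leaving out 1 library gave 0 to 2. For diet in CAST/EiJ, DESeq2 called 1 (Col6a2). For the diet effect in CAST/EiJ minus C57BL/6J, identifier range as a covariate called 1 (Col5a2). The cause of these changes was not tested. The call of Col4a2 in CAST/EiJ against C57BL/6J held in 9 of 24 fits that leave out a library, that of Col14a1 in 14, Col8a2 in 16, Col7a1 in 17 and Col6a2 in 18, and that of Col4a6 in NZO/HlLtJ against CAST/EiJ in 16. With identifier range as a covariate, the call of Col14a1 in CAST/EiJ against C57BL/6J was lost (adjusted p = 0.056, edgeR). The call of Col14a1 between the sexes was lost with identifier range as a covariate and without C57BL/6J 10% fat male 1 (adjusted p = 0.063 and 0.064, edgeR). Genes under 1 CPM rest on few counts. No paired analysis was possible because the labels give no replicate numbers that groups share.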
